A study of Mus musculus with 15 samples.

Results

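The genes described here encode G protein-coupled receptors other than chemokine receptors, as measured by RNA sequencing in sorted mouse T cells during acute graft versus host disease (aGvHD). They were chosen by name: a gene entered if its symbol began with Gpr and a digit, or with Adgr, P2ry, S1pr, Lpar, Ptger, Ptgdr, Ptgir, Adora, Adrb, Ffar, Hcar, Mrgpr, F2r or Ltb4r, and 2 macrophage and adhesion genes, Adgre1 and Adgrb2, were left out. This gave 49 of the 4567 genes listed in 4 deposited tables of differentially expressed genes, each restricted to genes that in 1 comparison of the authors passed an adjusted p of 0.05 and changed by more than 2 on the log2 scale. Of the 49, 38 were listed for CD8 Flica-positive cells against control, 26 for CD8 Flica-negative cells against control, 20 for CD4 Flica-negative cells against control and 12 for CD8 Flica-positive against Flica-negative cells. By ligand or family they comprised 4 protease-activated receptors, 4 lysophospholipid and proton-sensing receptors, 2 prostanoid and leukotriene receptors, 7 nucleotide and adenosine receptors, 5 fatty acid and metabolite receptors, 1 adrenergic receptor, 3 Mas-related receptors, 6 adhesion receptors and 17 other Gpr genes. Not every Gpr symbol names a receptor: GENCODE M21 lists Gpr137b-ps as a transcribed pseudogene and Gpr141b as a lincRNA, and Gpr137b is known as a lysosomal membrane protein.

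G protein-coupled receptors span the membrane with a bundle of helices and pass the binding of a ligand to heterotrimeric G proteins inside the cell, which then raise or lower cyclic AMP, release calcium or act on the cytoskeleton. In T cells, receptors for lysophospholipids, eicosanoids, nucleotides and oxysterols set where the cells move and hold back or favor activation, and several of them change as naive cells become effectors. Neutrophils and macrophages carry a dense set of such receptors for danger signals and metabolites, among them those for leukotriene B4, short-chain fatty acids and nucleotides. Well-known lymphocyte receptors such as S1pr1, S1pr4, S1pr5, Ptger2, Ptger4, P2ry10, Gpr18, Gpr65, Gpr132, Gpr171, Gpr174, Gpr183, Adora2a, Adgre5 and Lpar6 were not analysed here, because no table lists them.

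Donor T cells of C57Bl6 mice were given, with bone marrow cells, to irradiated, allogeneic BALB/c recipients, and spleen T cells were sorted on day 7 by CD4 or CD8 and by Flica, a fluorescent label of active caspase-1. On day 7 there were Flica-positive and Flica-negative CD8 cells and Flica-negative CD4 cells, and the 2 control groups were CD4 and CD8 cells of untreated C57Bl6 mice on day 0, which the study sorted as Flica-negative, with 3 libraries in each of the 5 groups. The controls had received no transfer and no irradiation, so the response to the foreign recipient, the irradiated environment and the lymphopenia cannot be told apart, and no CD4 Flica-positive library was analysed here. The libraries are labelled as biological replicates, and since the study sorted splenocytes of several diseased mice, a day 7 replicate may stand for a pool and not for an animal.

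The sum of counts over the listed genes was between 2143579 and 3184674 in the 12 control and Flica-negative libraries and between 7310375 and 11046043 in the 3 Flica-positive libraries. These sums cover selected genes and are not the depth of a library. All values below are normalized counts, that is, counts divided by the authors' size factors, which lay between 0.836 and 1.25. Groups are given as their 3 libraries in the order of the replicate numbers, or as mean ± SD (n = 3).

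Flica-positive libraries stood apart from the rest in measures that have to be read beside each receptor. The mitochondrial share of the counts on listed genes was between 42.8% and 51.7% in them, between 15.1% and 16.5% in Flica-negative libraries and between 26.1% and 28.8% in controls. Neutrophil markers, all 14 of which are listed, summed to 199502, 355290.3 and 395373 normalized counts in Flica-positive libraries, led by Ngp. The same sum was 11511, 17604 and 17894 in CD8 Flica-negative, 2538, 4724 and 7941 in CD4 Flica-negative, 159, 119.9 and 101 in CD4 control and 125, 54.6 and 81.7 in CD8 control libraries, so that every day 7 library lay above every control library. All 14 markers had counts in each day 7 group, and 2 of them had none in each control group. Macrophage and monocyte markers (13 of 19 listed, led by Lyz2) averaged 31264 in Flica-positive and 1884 in CD8 Flica-negative libraries, granulocyte progenitor markers (6 of 6, led by Mpo) 16524 and 1478, and mast cell, basophil and eosinophil markers (7 of 10, led in Flica-positive cells by Prss34) 2289 and 150.04. Megakaryocyte and platelet markers (5 of 12, led by Itga2b) averaged 444 and 45.98 in the same groups. Erythroid markers (9 of 13, led by Hba-a1) were 113409, 8226 and 2178 in Flica-positive libraries, with replicate 1 highest in each day 7 group.

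Cd8a, the single listed gene of 19 T cell markers, was between 9348 and 21642 normalized counts in the 9 CD8 libraries and at most 117 in the 6 CD4 libraries. B cell markers (11 of 12) averaged 9509 and 9721 in CD4 and CD8 controls against 606, 422 and 839.5 in the CD4 Flica-negative, CD8 Flica-negative and CD8 Flica-positive groups. Dendritic cell markers (5 of 10) averaged 8766 in CD8 Flica-negative and 5775 in Flica-positive libraries and were led by Itgax (8514 and 5234), which activated CD8 cells also express. Of the others, Flt3 (14.7 and 210), Batf3 (1.42 and 50.4) and Xcr1 (163 and 232) had higher means in Flica-positive libraries and Ccr9 (72.2 and 47.97) a lower one. In the same groups, natural killer markers (3 of 6) averaged 921 and 470.4, and the single listed endothelial marker, Egfl7, 17.6 and 45.01. In bulk RNA, a receptor transcript brought by other cells, more cells of a type and more RNA per cell cannot be told apart, and the part of these cell types in the receptor results was not tested.

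**Figure D1:**
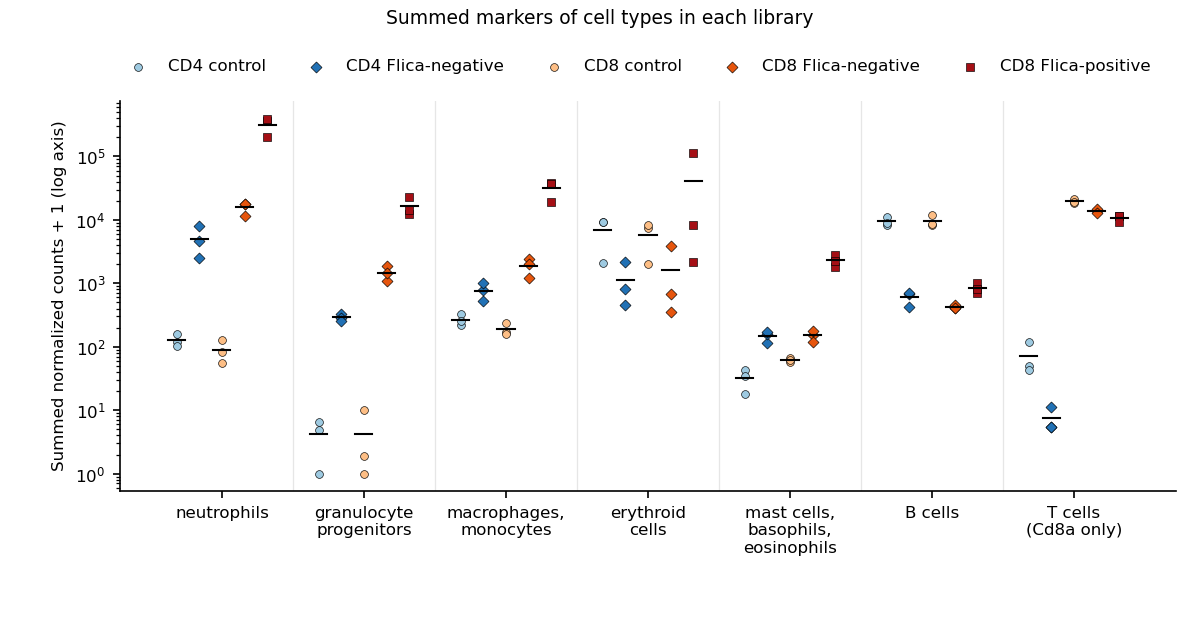
Summed normalized counts plus 1 (log axis) of markers of 7 cell types in each of the 15 libraries; each point is a library and each bar the mean of 3. The Flica-positive libraries (dark squares) lie between 199502 and 395373 for neutrophil markers, above every other library, and Cd8a alone represents T cells.

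The median level of the 49 genes was 14.8 normalized counts in CD4 control, 5.22 in CD8 control, 35.8 in CD4 Flica-negative, 20.3 in CD8 Flica-negative and 105 in CD8 Flica-positive cells. At least 100 normalized counts on average were reached by 8, 11, 16, 16 and 25 of the genes in these groups, and 8, 8, 3, 2 and 1 of them had no count in any library of the group. Per kilobase of exon, the measure used here to compare genes, the leading receptor in CD4 control cells was F2rl1 (456 normalized counts per kilobase), followed by F2rl3 (95.6). The leading receptor of CD8 control cells is not reported here. F2r led in CD4 Flica-negative (714) and CD8 Flica-negative cells (1024), with Gpr55 next in both (497 and 606), whereas Ltb4r1 led in Flica-positive cells (1057), ahead of F2r (689.8) and Gpr55 (445).

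**Figure D2:**
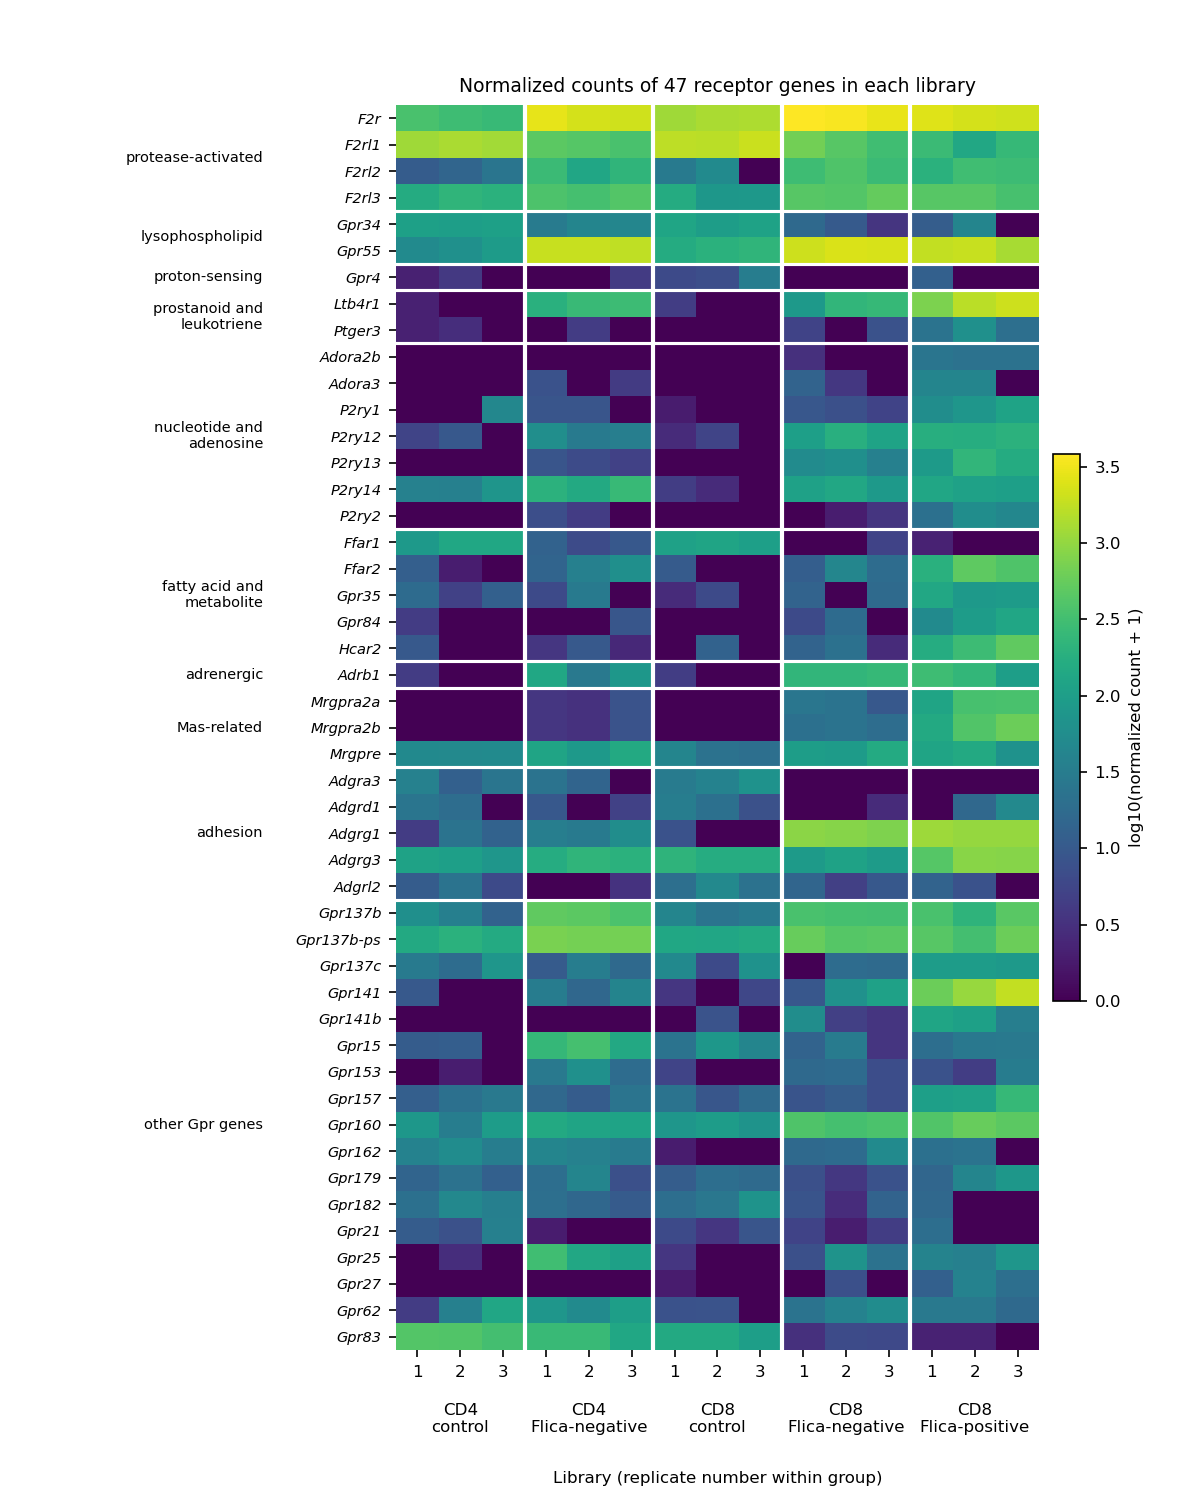
Normalized counts of 47 of the 49 receptor genes (rows, by ligand or family) in the 15 libraries (columns, by group), as log10(normalized count + 1). F2r and Gpr55 are bright in the day 7 groups, and a block of fatty acid, nucleotide and Mas-related receptors is dark in controls and bright in Flica-positive libraries.

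Groups were compared with edgeR's quasi-likelihood test over all listed genes with at least 10 counts in the libraries compared. Fold changes are log2 values ± SE, and a gene is said to have risen or fallen where its Benjamini-Hochberg adjusted p was below 0.05. Every listed gene had been selected by a test of the authors on these very libraries, so the p-values carry no independent weight, and the share called among all listed genes is given beside the counts of each comparison. Where a group had no count, its fold is a lower limit set against a floor of 3 counts over the group, and where it had 1 to 3 counts the ratio is given with a 95% counting interval, which covers counting error only.

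Between CD8 Flica-positive and Flica-negative cells, 13 of 47 receptor genes rose and 1 fell, where 21.7% of all listed genes rose and 2.80% fell. With TMM scaling, which lowered the fold change of all listed genes by a median of 0.57, 10 rose and 6 fell, as did 16.8% and 10.4% of all listed genes. Between Flica-positive and control CD8 cells, 32 of 49 rose and 5 fell (47.2% and 24.2% of all listed genes), and under TMM, which lowered fold changes by a median of 1.61, 21 rose and 11 fell (27.2% and 35.5% of all listed genes).

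In CD8 Flica-negative cells, 23 of 46 receptor genes rose over control and 10 fell (38.8% and 29.9% of all listed genes). In CD4 Flica-negative cells, 18 of 44 rose over control and 5 fell (33.0% and 27.9%). The median log2 fold change of the receptor genes in these 2 comparisons was 2.18 and 1.28, against 0.61 and 0.09 for all listed genes. CD4 Flica-negative cells had 4 of 46 receptor genes higher and 8 lower than CD8 Flica-negative cells (10.1% and 12.6% of all listed genes), and CD4 control cells had 4 of 35 higher and 5 lower than CD8 control cells (7.11% and 5.85%). The change from control to Flica-negative differed between the lineages for 11 of 47 receptor genes, with the CD4 minus the CD8 log2 change above 0 for 8 and below 0 for 3, where 5.70% and 4.66% of all listed genes did. Of the 49 genes, 13 were higher than control in all 3 day 7 groups and 3 were lower in all 3, as were 24.6% and 13.2% of all listed genes, and 3 (Adgrl2, Gpr137c and Gpr179) passed the test in none of the 4 comparisons that the tables cover.

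**Figure D3:**
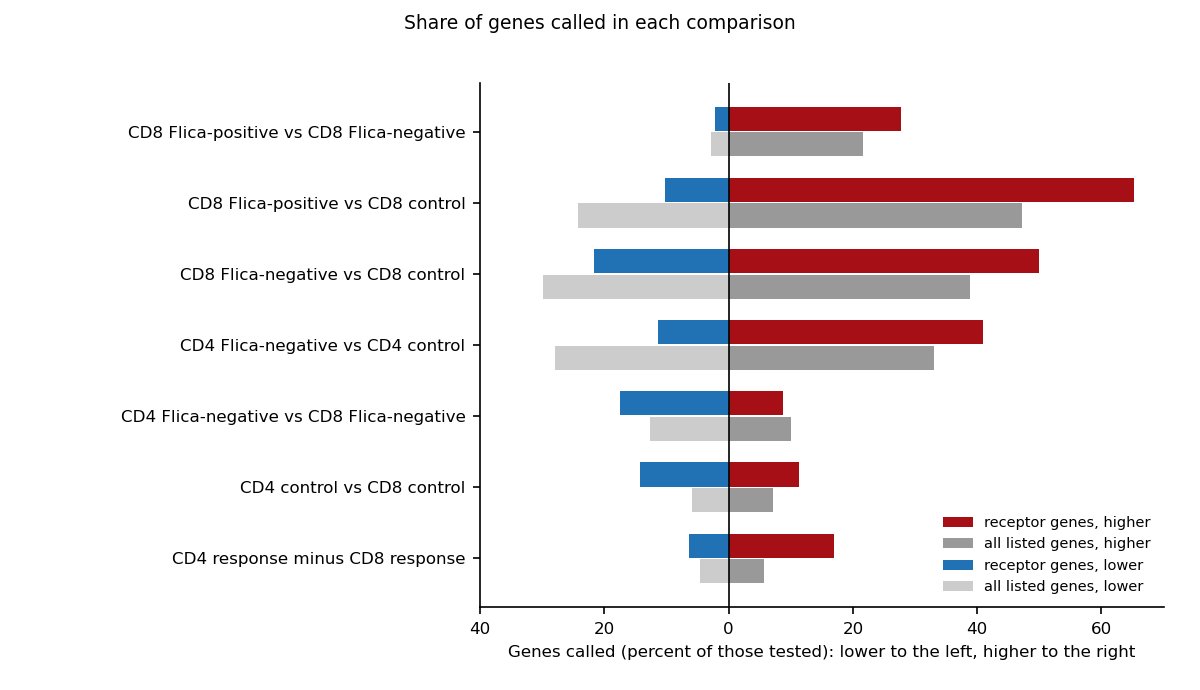
Percent of tested genes called lower (left) and higher (right) in each comparison, for the receptor genes (colored) and for all listed genes (gray). In the 3 comparisons with control the receptor genes show a larger share of higher and a smaller share of lower calls than all listed genes, for example 65.3% against 47.2% higher in Flica-positive CD8 cells.

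The protease-activated receptors, which are switched on when thrombin, trypsin or tryptase cut their outer end, moved in opposite directions. F2r, the thrombin receptor PAR1, was at 352, 293 and 262 in CD4 control libraries and at 2779, 2236 and 2135 in CD4 Flica-negative libraries. In CD8 cells it was at 1169, 1341 and 1402 in control, 3827, 3499 and 2923 in Flica-negative and 2576, 2248 and 2079.6 in Flica-positive libraries. Every day 7 library was thus above every control library, with the lowest values in CD4 controls. F2r rose in CD4 (2.98 ± 0.20, edgeR adjusted p = 3.48e-07) and in CD8 Flica-negative cells (1.39 ± 0.17, edgeR adjusted p = 6.37e-05). In Flica-positive cells against control it rose by the authors' size factors (0.82 ± 0.20, edgeR adjusted p = 0.00732) but fell under TMM scaling (-0.81, edgeR adjusted p = 0.0320).

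F2rl1, the trypsin and tryptase receptor PAR2, was the reverse. It was at 1188, 1325 and 1236 in CD4 control and 481, 439.7 and 354 in CD4 Flica-negative libraries. CD8 libraries held 1671, 1646 and 1945 in control, 651, 443 and 302 in Flica-negative and 280.2, 139 and 254 in Flica-positive libraries. No day 7 library reached a control library. F2rl1 fell in CD4 Flica-negative (-1.56 ± 0.19, edgeR adjusted p = 3.34e-05), CD8 Flica-negative (-1.92 ± 0.28, edgeR adjusted p = 0.000195) and CD8 Flica-positive cells (-2.97 ± 0.31, edgeR adjusted p = 5.97e-05). The remaining members, F2rl3 (PAR4, a further thrombin receptor) and F2rl2 (PAR3, which assists thrombin signalling), rose in all 3 groups. F2rl3 went from 106 ± 46.5 in CD8 control to 471 ± 70.1 in Flica-negative cells (2.15 ± 0.36, edgeR adjusted p = 0.000459) and F2rl2 from 26.4 ± 25.6 to 323 ± 66.1 (3.60 ± 0.87, edgeR adjusted p = 0.00456). F2r, F2rl1 and F2rl2 are neighbors on mouse chromosome 13 (chr13:95601803-95618487, chr13:95511732-95525227 and chr13:95696853-95702739, GRCm38, coordinates from GENCODE M21). The rise of F2rl2 in Flica-positive cells (3.29 ± 1.13, edgeR adjusted p = 0.0289) was lost without CD8 control replicate 1 or Flica-positive replicate 1 or 2 and under TMM, with an adjusted p of up to 0.241. TMM also ended the calls of F2rl3 in Flica-positive CD8 (adjusted p = 0.543) and CD4 Flica-negative cells (adjusted p = 0.051).

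Among the lipid receptors, Gpr55 was an abundant transcript that rose in the Flica-negative cells of both lineages. Gpr55, a receptor for lysophosphatidylinositol, was at 50.2, 60.9 and 90.7 in CD4 control and 1906, 1931 and 1709.8 in CD4 Flica-negative libraries. It was at 160.3, 193 and 218 in CD8 control, 2048, 2364 and 2349.9 in Flica-negative and 1793, 1892 and 1286 in Flica-positive libraries. The lowest day 7 library was thus well above the highest control library. Gpr55 rose in CD4 Flica-negative (4.77 ± 0.26, edgeR adjusted p = 7.37e-08), CD8 Flica-negative (3.57 ± 0.22, edgeR adjusted p = 5.51e-07) and Flica-positive cells (3.12 ± 0.27, edgeR adjusted p = 2.18e-05), and the difference between Flica-positive and Flica-negative cells did not pass the test (-0.44 ± 0.21, edgeR adjusted p = 0.15). Gpr34, a lysophosphatidylserine receptor, moved the other way, from 126, 97.6 and 113 in CD8 control to 15.98, 9.33 and 2.59 in Flica-negative libraries (-3.601 ± 0.65, edgeR adjusted p = 0.000753) and from 107 ± 4.55 to 38.2 ± 7.17 in CD4 cells (-1.48 ± 0.42, edgeR adjusted p = 0.00989), the latter lost when all 5 groups were fitted together (adjusted p = 0.16). In Flica-positive libraries Gpr34 was scattered, at 10.6, 41.2 and 0. Gpr4, a receptor that senses extracellular protons, had 46 counts in CD8 control and none in CD8 Flica-negative libraries (at least 14.8-fold lower) and stayed at low counts elsewhere.

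Ltb4r1, the high-affinity receptor for the chemoattractant leukotriene B4, was nearly absent from control libraries and present in each day 7 library. It was at 1.12, 0 and 0 in CD4 control and 3.52, 0 and 0 in CD8 control libraries. It was at 184, 271 and 284 in CD4 Flica-negative, 83.1, 229.5 and 252 in CD8 Flica-negative and 753, 1605 and 2065 in Flica-positive libraries. The 3 Flica-positive libraries were above all others, and the CD4 and CD8 Flica-negative libraries overlapped. Ltb4r1 was 751-fold (95% counting interval 134 to 29688) higher in CD4 Flica-negative than in control cells, where the controls held 1 count (edgeR adjusted p = 7.65e-07). It rose in CD8 Flica-negative (7.15 ± 0.95, edgeR adjusted p = 9.81e-05) and Flica-positive cells over control (10.11 ± 0.85, edgeR adjusted p = 2.01e-05), and in Flica-positive over Flica-negative cells (2.97 ± 0.46, edgeR adjusted p = 0.000614). Ltb4r1 and P2ry13 were the receptor genes that rose in all 4 comparisons.

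The 250 bases before the Ltb4r1 start (RefSeq, GRCm38.p6, chr14:55765712-55765961, plus strand) are shown because this gene led the receptors of Flica-positive cells by mean level per kilobase of exon. The capitals mark 2 matches to the RUNX motif TGTGGT on either strand, the second of which ends at the last base before the start.
Ltb4r1: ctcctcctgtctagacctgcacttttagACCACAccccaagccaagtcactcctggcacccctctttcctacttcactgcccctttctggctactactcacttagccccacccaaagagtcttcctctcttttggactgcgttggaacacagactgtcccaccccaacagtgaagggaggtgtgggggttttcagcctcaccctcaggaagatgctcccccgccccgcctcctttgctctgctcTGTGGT
TGTGGT occurred in 14% of the 32851 RefSeq windows of this length. It was in 11 of the 48 windows of receptor genes, and in a window of 11 of the 38 receptor genes that have any. A match is a run of letters and says nothing of binding. Ptger3, a prostaglandin E receptor, was at 0 in all CD8 control libraries and at 22.3, 62.4 and 19.1 in Flica-positive libraries, at least 38.03-fold higher (edgeR adjusted p = 0.0056). Its difference from Flica-negative cells did not pass the test (adjusted p = 0.109).

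All 7 nucleotide and adenosine receptors rose in Flica-positive cells over CD8 control, and 3 of them also rose over Flica-negative cells (47.2% and 21.7% of all listed genes rose in these comparisons). P2ry14, which binds UDP-glucose, was at 36.8, 34.8 and 73.8 in CD4 control and 200.1, 147 and 256 in CD4 Flica-negative libraries (2.05 ± 0.42, edgeR adjusted p = 0.00145). In CD8 cells it was at 3.52, 1.79 and 0 in control, 112, 139 and 85.4 in Flica-negative (5.87 ± 0.79, edgeR adjusted p = 0.000107) and 131, 112 and 103 in Flica-positive libraries (5.91 ± 1.07, edgeR adjusted p = 0.00151). The Flica-negative and Flica-positive libraries overlapped. P2ry12, an ADP receptor known from platelets and microglia, followed the same course in CD8 cells, from 1.76, 4.48 and 0 to 104, 181 and 118 (5.92 ± 0.79, edgeR adjusted p = 0.000106) and 175, 172 and 199 (6.35 ± 1.01, edgeR adjusted p = 0.000675). In CD4 cells its rise (3.16 ± 1.05, edgeR adjusted p = 0.0226) was lost without control replicate 1 or Flica-negative replicate 1 (adjusted p up to 0.0943).

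P2ry13, a further ADP receptor, had no count in the 6 control libraries. It was at 7.93, 5.58 and 4.004 in CD4 Flica-negative, 52.2, 59.7 and 35.4 in CD8 Flica-negative and 89.1, 231 and 161 in Flica-positive libraries, so the 3 groups did not overlap. It was at least 53.3-fold higher in CD8 Flica-negative cells and at least 176-fold higher in Flica-positive cells than in control (edgeR adjusted p = 0.000311 and 0.000432). In CD4 Flica-negative cells, on 19 counts, it was at least 5.90-fold higher (edgeR adjusted p = 0.0393), a call lost without any of the 6 libraries and with DESeq2 (adjusted p up to 0.0939). P2ry1, another ADP receptor, was at 8.52, 6.53 and 4.31 in Flica-negative and 56.3, 76.5 and 117 in Flica-positive libraries (3.67 ± 0.77, edgeR adjusted p = 0.00492), a call lost in the fit of all groups. P2ry2, the ATP and UTP receptor, was at 0, 0.933 and 2.59 and 19.9, 55.3 and 44.2 in the same groups (4.89 ± 1.32, edgeR adjusted p = 0.0202). Neither gene's Flica-positive libraries overlapped the Flica-negative ones. P2ry1 shares 19.7% of its 150-base stretches with the antisense gene Gm37035, and whether the libraries kept strand is not stated. The adenosine receptors Adora2b and Adora3 were at 0 in all control libraries. At 23.4, 21.2 and 21.5 and at 41.03, 42.4 and 0 in Flica-positive libraries, they were at least 24.2-fold and at least 30.7-fold higher in Flica-positive libraries than in CD8 controls (edgeR adjusted p = 0.0068 and 0.0262). Adora3 shares 14.6% of its stretches with Tmigd3, and its call was lost without any of 5 of the 6 libraries, all except Flica-positive replicate 3, and under TMM (adjusted p up to 0.0692). P2ry12, P2ry13 and P2ry14 lie side by side on 1 stretch of chromosome 3 (chr3:59216272-59262871, chr3:59207892-59210882 and chr3:59113855-59153618).

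The P2ry13 rise over Flica-negative cells (1.71 ± 0.52, edgeR adjusted p = 0.0352) was lost under TMM, in the fit of all groups, without any Flica-negative replicate or without Flica-positive replicate 2 (adjusted p up to 0.146). The P2ry2 rise was lost without Flica-negative replicate 1 or 2 or Flica-positive replicate 2 (adjusted p up to 0.0872).

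Of the fatty acid and metabolite receptors, 4 were tested between Flica-positive and Flica-negative cells, and all 4 were higher in Flica-positive cells, as were 21.7% of all listed genes. Ffar2, a receptor for acetate and other short-chain fatty acids, was at 10.7, 42.9 and 17.3 in Flica-negative and 189, 496 and 396 in Flica-positive libraries (3.92 ± 0.59, edgeR adjusted p = 0.000519). Hcar2, the receptor for niacin and 3-hydroxybutyrate, was at 12.8, 20.5 and 1.73 in the former and 165, 284 and 509 in the latter (4.77 ± 0.75, edgeR adjusted p = 0.000695). The groups did not overlap for either gene, and CD8 control libraries held 9.69, 0 and 0 of Ffar2 and 0, 12.5 and 0 of Hcar2. Gpr84, a medium-chain fatty acid receptor, went from 5.33, 16.8 and 0 in Flica-negative to 50.4, 95.4 and 130.3 in Flica-positive libraries (3.62 ± 1.11, edgeR adjusted p = 0.0352). Gpr35, a receptor proposed for kynurenic acid, went from 12.8, 0 and 16.4 to 138, 84.8 and 92.1 (3.41 ± 1.01, edgeR adjusted p = 0.0315). Gpr84 shares 33.8% of its 150-base stretches with the overlapping gene Gm49482. The calls of Gpr84 and Gpr35 over Flica-negative cells were lost under TMM and in the fit of all groups. They were also lost without Flica-negative replicate 1 or Flica-positive replicate 2, for Gpr84 without Flica-positive replicate 3 and for Gpr35 without Flica-positive replicate 1 (adjusted p up to 0.112 and 0.0957).

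Ffar1, a receptor for long-chain fatty acids, went against the rest of this family. It was at 87.1, 134 and 136 in CD4 control and 12.3, 5.58 and 8.81 in CD4 Flica-negative libraries. CD8 libraries held 112, 122 and 106 in control, 0, 0 and 4.31 in Flica-negative and 1.17, 0 and 0 in Flica-positive libraries. No day 7 library reached a control library. It fell in CD4 (-3.71 ± 0.53, edgeR adjusted p = 0.000103) and CD8 Flica-negative cells (-6.10 ± 0.93, edgeR adjusted p = 0.00025), and in Flica-positive cells, which held 1 count, it was 288-fold (95% counting interval 51.3 to 11393) lower than in control (edgeR adjusted p = 0.000443). Ffar1 and Ffar2 are close neighbors on chromosome 7 (chr7:30857390-30861564 and chr7:30818348-30823775). The B cell marker sum, given above, was also lower in the day 7 groups, and its part in the fall of Ffar1 was not tested.

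The Mas-related receptors Mrgpra2a and Mrgpra2b had no count in any control library. Mrgpra2a was at 24.5, 22.4 and 8.63 in CD8 Flica-negative and 123, 351 and 356 in Flica-positive libraries, and Mrgpra2b at 20.2, 22.4 and 18.1 and 151, 405 and 602. Flica-positive libraries were separate from Flica-negative ones for both (3.90 ± 0.60, edgeR adjusted p = 0.000583 and 4.24 ± 0.54, edgeR adjusted p = 0.000156). Over control they were at least 303-fold and at least 422-fold higher in Flica-positive cells (edgeR adjusted p = 0.000215 and 0.000185). The pair are copies side by side on chromosome 7 (chr7:47426328-47452139 and chr7:47463806-47528862): they share 60.6% and 56.2% of their 150-base stretches, so reads may have been split between them, and the counts of the CD4 Flica-negative libraries were equal for both. The windows before their RefSeq starts are identical at all 250 positions (chr7:47452165-47452414, minus strand and chr7:47489583-47489832, minus strand, RefSeq, GRCm38.p6), which is why a single sequence is printed for both, with no match to the 4 motifs searched. The Mrgpra2b window lies inside the GENCODE span given above, which reaches further upstream on the minus strand.
Mrgpra2a and Mrgpra2b: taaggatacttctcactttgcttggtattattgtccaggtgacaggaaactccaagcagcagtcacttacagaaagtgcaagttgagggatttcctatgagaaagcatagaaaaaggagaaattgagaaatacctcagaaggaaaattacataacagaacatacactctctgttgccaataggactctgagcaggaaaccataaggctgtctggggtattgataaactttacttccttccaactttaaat
Mrgpre, the third member, was present in each group and rose in CD8 Flica-negative cells from 27.7 ± 12.7 to 114 ± 33.9 (2.03 ± 0.51, edgeR adjusted p = 0.00545). Its rise in Flica-positive cells (2.01 ± 0.70, edgeR adjusted p = 0.031) was lost under TMM and without CD8 control replicate 2 or 3 or Flica-positive replicate 1 or 2, and its rise in CD4 cells (1.28 ± 0.40, edgeR adjusted p = 0.017) under TMM and without CD4 Flica-negative replicate 3.

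Adrb1, the beta-1 adrenergic receptor for norepinephrine, was the only adrenergic receptor listed. It was at 3.35, 0 and 0 in CD4 control and 133, 26.8 and 78.5 in CD4 Flica-negative libraries. In CD8 cells it was at 3.52, 0 and 0 in control, 224, 229.5 and 249 in Flica-negative and 298, 232 and 102 in Flica-positive libraries. The control and day 7 libraries were separate, and Flica-positive and Flica-negative libraries overlapped (-0.15 ± 0.41, edgeR adjusted p = 0.812). Adrb1 rose in CD8 Flica-negative cells (7.47 ± 0.80, edgeR adjusted p = 2.31e-05) and was 84.8-fold (95% counting interval 28.7 to 414) higher in CD4 Flica-negative cells than in control (edgeR adjusted p = 0.000649).

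The adhesion receptors, which carry long outer domains and cleave themselves, included a gene with a large rise in CD8 cells. Adgrg1 (GPR56), known from cytotoxic lymphocytes, was at 7.05, 0 and 0 in CD8 control libraries, 906, 866 and 769 in Flica-negative and 1127, 1041 and 1052 in Flica-positive libraries. In CD4 cells it was at 3.35, 22.2 and 12.5 in control and 32.6, 27.9 and 55.3 in Flica-negative libraries. The CD8 day 7 libraries were far above all other libraries. Adgrg1 rose in CD8 Flica-negative (8.39 ± 0.74, edgeR adjusted p = 6.24e-06) and Flica-positive cells (8.72 ± 0.88, edgeR adjusted p = 4.84e-05), and the CD4 change did not pass the test (1.59 ± 0.80, edgeR adjusted p = 0.102).

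Adgrg1 and Adgrg3 (GPR97) both lie on the plus strand of chromosome 8 (chr8:94974751-95014217 and chr8:95017692-95045250). Adgrg3, known from granulocytes, was at 211, 164 and 165 in CD8 control, 87.4, 115 and 92.3 in Flica-negative and 435, 893 and 868 in Flica-positive libraries, and rose in Flica-positive over Flica-negative cells (2.90 ± 0.34, edgeR adjusted p = 9.00e-05). The rise over control (2.02 ± 0.36, edgeR adjusted p = 0.00131) was lost under TMM (adjusted p = 0.431). The 250 bases before a RefSeq start of Adgrg1 (GRCm38.p6, chr8:94976859-94977108, plus strand) are printed for its large rise in CD8 cells. This window lies inside the GENCODE span given above. The capitals mark matches to the T-box motif TCACAC, searched on either strand.
Adgrg1: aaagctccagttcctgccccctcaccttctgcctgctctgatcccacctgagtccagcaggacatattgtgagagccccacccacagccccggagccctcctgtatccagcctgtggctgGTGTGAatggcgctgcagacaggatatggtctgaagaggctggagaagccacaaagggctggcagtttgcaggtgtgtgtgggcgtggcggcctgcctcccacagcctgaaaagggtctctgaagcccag
TCACAC occurred in 12.3% of all 32851 windows and in 7 of the 48 windows of receptor genes. These belonged to 6 of the 38 receptor genes with a window, among them Adgrg1, Gpr55, Gpr83, P2ry12 and P2ry14. The AP-1 motif TGANTCA was in 6.75% of all windows and in 9 of the 48 receptor windows (8 of the 38 genes). The C/EBP motif TTGCNNAA was in 9.56% and in 8 of the 48 (5 of the 38 genes), and neither motif was in the window printed here. Adgrg1 has 2 windows in the table, of which the first is printed and the other holds an AP-1 match, and the window of Adgrg3 held none of the 4 motifs.

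Of the other adhesion receptors, Adgra3 was at 29.95, 37.6 and 65.4 in CD8 control libraries and had no count in the 6 CD8 day 7 libraries, at least 46.2-fold lower in Flica-negative and at least 37.02-fold lower in Flica-positive cells (edgeR adjusted p = 0.000511 and 0.00373). In CD4 cells it was at 36.8, 11.6 and 24.01 in control and 22.04, 13.4 and 0 in Flica-negative libraries. Adgrd1 fell in CD8 Flica-negative cells, with 65 counts in control and 2 in Flica-negative libraries (edgeR adjusted p = 0.0127), which was lost without CD8 control replicate 1 (adjusted p up to 0.054). Adgrl2, a latrophilin, was at a mean of at most 29.3 in each group.

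Among the other Gpr genes, Gpr83 and Gpr15 were higher in CD4 than in CD8 Flica-negative cells, and Gpr141 was highest in Flica-positive cells. Gpr83, a receptor known from regulatory T cells, was at 424, 403 and 319 in CD4 control and 268, 269 and 136 in CD4 Flica-negative libraries. In CD8 cells it went from 147, 147 and 100.02 in control to 2.13, 5.60 and 5.18 in Flica-negative (-4.88 ± 0.57, edgeR adjusted p = 4.31e-05) and 1.17, 1.18 and 0 in Flica-positive libraries. CD8 day 7 libraries were below all others. The smaller fall in CD4 cells (-0.77 ± 0.30, edgeR adjusted p = 0.0447) was lost without any of 5 of the 6 libraries, all except CD4 control replicate 3, and in the fit of all groups (adjusted p up to 0.135). Gpr15, which guides T cells to the gut, was at 10.05, 10.6 and 0 in CD4 control and 242, 336 and 143 in CD4 Flica-negative libraries (5.13 ± 0.75, edgeR adjusted p = 0.000126), with no overlap, while CD8 libraries held 22.03, 77.01 and 42.3 in control and 12.8, 29.9 and 2.59 in Flica-negative cells.

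Gpr25, an orphan receptor of T cells, went from 0, 1.93 and 0 to 299.8, 142 and 107 in CD4 cells, 279-fold (95% counting interval 77.02 to 2313) higher (edgeR adjusted p = 1.15e-05), and rose to 6.39, 67.2 and 21.6 in CD8 Flica-negative and 38.7, 35.3 and 74.1 in Flica-positive libraries. It shares 32.2% of its 150-base stretches with the overlapping gene Gm26781, and its call in CD8 Flica-negative cells did not hold without replicate 2 of that group (adjusted p up to 0.0692). Gpr141, an orphan receptor, was at 2.64, 0 and 4.81 in CD8 control, 8.52, 64.4 and 111 in Flica-negative and 592, 1077 and 1791 in Flica-positive libraries (4.22 ± 0.70, edgeR adjusted p = 0.00107 against Flica-negative cells). Gpr157 went from 7.46, 10.3 and 6.04 in Flica-negative to 103, 111 and 249 in Flica-positive libraries (4.26 ± 0.65, edgeR adjusted p = 0.000558). Both were separate between Flica-positive and Flica-negative libraries.

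Gpr137b rose in all 3 day 7 groups, in CD4 cells from 35.5 ± 23.97 to 456 ± 72.7 (3.70 ± 0.47, edgeR adjusted p = 3.93e-05), and so did the pseudogene Gpr137b-ps (2.06, edgeR adjusted p = 1.07e-05), with which it shares 9.23% of its stretches. Under TMM the rise of the pseudogene in Flica-positive cells was lost (adjusted p = 0.961). Gpr160 rose in CD8 Flica-negative cells from 79.1 ± 13.4 to 364 ± 31.5 (2.20 ± 0.30, edgeR adjusted p = 0.000134). Gpr162 was at 0.881, 0 and 0 in CD8 control and 15.98, 16.8 and 50.1 in Flica-negative libraries, 94.5-fold (95% counting interval 16.5 to 3774) higher, and Gpr153 at 0, 0.967 and 0 in CD4 control and 27.3, 62.5 and 17.6 in CD4 Flica-negative libraries, 102-fold (95% counting interval 17.8 to 4046) higher (edgeR adjusted p = 0.00242 and 0.00147). Gpr62 rose (2.98, edgeR adjusted p = 0.0246) and Gpr182, a chemokine scavenger of endothelium, fell (-2.32, edgeR adjusted p = 0.0398) in CD8 Flica-negative cells, both lost without Flica-negative replicate 2 and without another library, Flica-negative replicate 3 for Gpr62 and control replicate 3 or Flica-negative replicate 1 for Gpr182. TMM ended the call of Gpr62 and the fit of all groups that of Gpr182. Gpr21 had 56 counts in CD4 control and 1 in CD4 Flica-negative libraries, a fall lost without CD4 control replicate 3 (adjusted p up to 0.059). Gpr27, 75.2-fold (95% counting interval 12.97 to 3021) higher, and the lincRNA Gpr141b rose in Flica-positive cells over control (edgeR adjusted p = 0.0102 and 0.0149), the latter lost under TMM (adjusted p = 0.0659). Gpr137c and Gpr179, of the tables for Flica-positive against Flica-negative cells, did not pass the test there (edgeR adjusted p = 0.0535 and 0.0598).

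The 13 receptor genes that were higher in Flica-positive cells than in both other CD8 groups were Adgrg3, Ffar2, Gpr141, Gpr157, Gpr35, Gpr84, Hcar2, Ltb4r1, Mrgpra2a, Mrgpra2b, P2ry1, P2ry13 and P2ry2. Of all listed genes, 16.7% were higher than in both. The rise of Gpr157 over control, which this needs, was lost under TMM (adjusted p = 0.089), as was that of Adgrg3. The neutrophil marker sum was 20.2-fold, the macrophage and monocyte sum 16.6-fold and the granulocyte progenitor sum 11.2-fold higher, by group means, in the Flica-positive than the Flica-negative libraries. On the same scale of means, P2ry2, with 4 counts over the Flica-negative libraries, was 33.9-fold, Hcar2 27.4-fold, Gpr157 19.5-fold, Mrgpra2b 19.1-fold, Gpr141 18.8-fold and Ffar2 15.2-fold higher. Mrgpra2a, P2ry1 and Gpr84 were 14.95-fold, 12.9-fold and 12.5-fold higher. Gpr35 (10.8-fold), Ltb4r1 (7.83-fold), Adgrg3 (7.46-fold) and P2ry13 (3.27-fold) differed less than each of these 3 marker sums did. Receptor levels per 1000 normalized counts of neutrophil markers were taken as ratios of group means. By these, Gpr141 stood at 3.92 in Flica-negative and at 3.64 in the Flica-positive libraries and Mrgpra2b at 1.29 and 1.22. Ltb4r1 stood at 12.01 and 4.65 and P2ry13 at 3.13 and 0.507. Hcar2 (from 0.745 to 1.01) and P2ry2 (from 0.0749 to 0.126) were the members of the 13 with a higher such ratio in Flica-positive libraries. No spread over the libraries was computed for these ratios. The Flica-negative values of Gpr141 and Hcar2, given above, differed widely between libraries, and P2ry2 rested on 4 counts there.

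With the exception of Gpr35, the lowest Flica-positive value of each gene was that of replicate 1, the library with the smallest neutrophil sum and the largest erythroid sum of the 3. Without that library 14 receptor genes were higher in this comparison. The part of neutrophils and other myeloid cells in these differences was not tested. The receptors with the highest levels in Flica-negative cells were not among the 13. F2r (-0.57 ± 0.20, edgeR adjusted p = 0.0599), Gpr55 and Adgrg1 (0.34 ± 0.20, edgeR adjusted p = 0.222) did not pass the test between Flica-positive and Flica-negative cells, and Cd8a averaged 10759 and 13875 in these 2 groups.

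**Figure D4:**
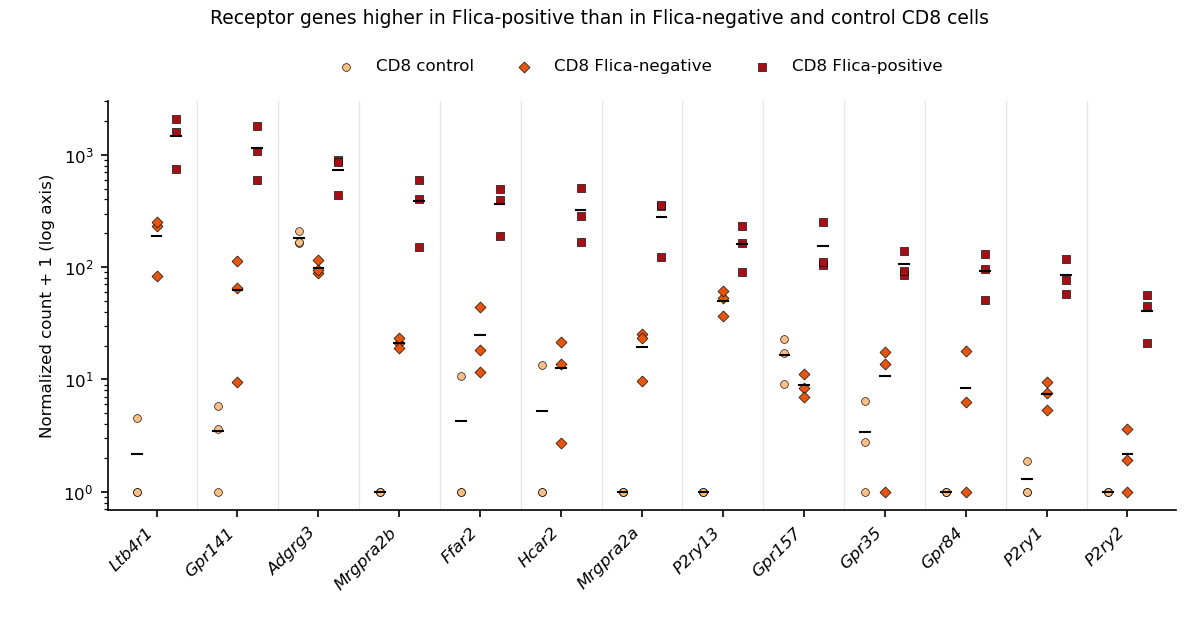
Normalized counts plus 1 (log axis) in the 9 CD8 libraries of the 13 receptor genes with higher levels in Flica-positive cells than in the other 2 groups, ordered by their Flica-positive mean. Points are libraries and bars means of 3, and the squares of Flica-positive libraries lie above the diamonds of Flica-negative libraries for each gene.

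The response of CD4 and CD8 cells was compared by the difference of their changes from control to Flica-negative cells, tested as an interaction over the 12 libraries. The CD4 minus the CD8 log2 change was below 0 for 3 genes that rose in CD8 cells, Adgrg1 (-6.80, edgeR adjusted p = 0.000164), P2ry14 (-3.82, edgeR adjusted p = 0.00683) and Gpr162, whose CD8 controls held 1 count. P2ry14 rose less in CD4 cells, and Gpr162 had 126 counts in CD4 control and 119 in CD4 Flica-negative libraries. It was above 0 for, among others, Gpr15 (6.77), Gpr83 (4.10), Adgrg3 (1.85), F2r (1.59) and Gpr55 (1.21, edgeR adjusted p between 0.000122 and 0.0188), and for Adgra3, which had no count in CD8 Flica-negative cells. These genes moved in different ways. F2r and Gpr55 rose more in CD4 than in CD8 cells, Gpr83 fell more in CD8 (-4.88) than in CD4 cells (-0.77), and Adgrg3 rose in CD4 (0.97) and fell in CD8 cells (-0.87, edgeR adjusted p = 0.0222 and 0.043). Of these 2 calls of Adgrg3, that in CD4 cells was lost without control replicate 3 or Flica-negative replicate 2 and under TMM, and that in CD8 cells without any library but control replicate 3 (adjusted p up to 0.138 and 0.116). Gpr15 rose in CD4 cells, and its CD8 change did not pass the test (-1.64 ± 0.85, edgeR adjusted p = 0.109). Adgra3 fell in CD8 cells, and its CD4 change did not pass the test (edgeR adjusted p = 0.467). For F2r and Gpr55, CD4 controls started from lower levels than CD8 controls (-2.11 and -1.49 on the log2 scale, edgeR adjusted p = 2.99e-07 and 0.00467). On day 7 the difference between CD4 and CD8 Flica-negative cells was smaller in size, -0.52 and -0.29 (edgeR adjusted p = 0.0312 and 0.202). The call of Gpr55 was lost without CD4 control replicate 1 (adjusted p = 0.0524), that of Adgrg3 under TMM, and that of Adgra3 without any of 7 of the 12 libraries.

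Between the control groups, P2ry14, Gpr162, Gpr83 and Gpr62 were higher in CD4 cells, and those lower included F2r, Gpr55 and F2rl1. The call of F2rl1 (edgeR adjusted p = 0.0464) was lost without any of the 6 libraries and that of Gpr62 (edgeR adjusted p = 0.0484) without any but CD4 control replicate 1, and both in the fit of all groups, that of Gpr62 also under TMM and with the stricter filter.

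Between the day 7 Flica-negative groups, Gpr83 (5.64), Gpr15 (3.99), Gpr25 (2.51) and Adgrg3 (0.98) were higher in CD4 cells. Those lower in CD4 cells included Adgrg1 (-4.44), P2ry13 (-3.05), P2ry12 (-1.75), Adrb1 (-1.55), Gpr160 (-1.48), F2r and Gpr141b, the last with no count in CD4 Flica-negative libraries (edgeR adjusted p between 1.86e-07 and 0.0313 over these 11 genes). Of these, Adgrg1, Gpr15, Gpr83, Gpr160 and P2ry13 kept their call under each alternative tried. The others were lost without at least 1 library, P2ry12 without CD8 Flica-negative replicate 2, Gpr25 without CD4 Flica-negative replicate 1, Gpr141b without CD4 Flica-negative replicate 1 or 2, and Adrb1, Adgrg3 and F2r without any of 3, 5 and 4 libraries. The fit of all groups ended each of these calls but that of Gpr141b, and TMM that of F2r. The neutrophil marker sum averaged 5068 in CD4 and 15669.9 in CD8 Flica-negative cells.

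**Figure D5:**
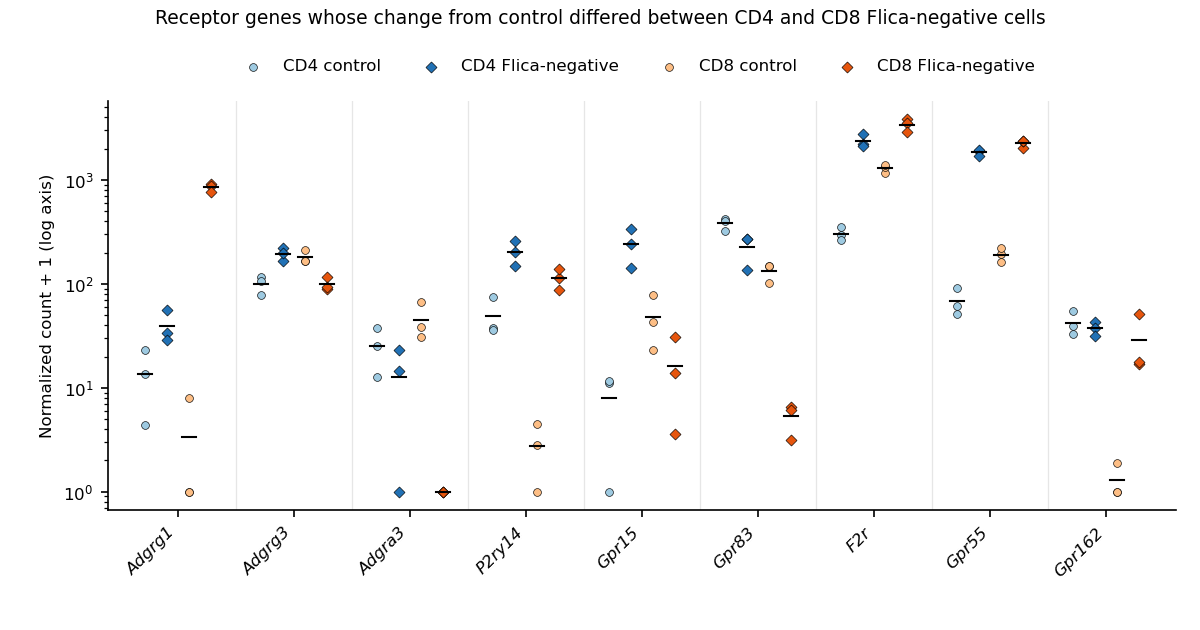
Normalized counts plus 1 (log axis) in the 12 control and Flica-negative libraries of 9 receptor genes whose change differed between CD4 and CD8 cells. Points are libraries and bars means of 3: Adgrg1 lies between 769 and 906 in CD8 Flica-negative libraries and at or below 55.3 in the others, and Gpr15 between 143 and 336 in CD4 Flica-negative libraries and at or below 77.0 in the others.

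The machinery downstream of the receptors was described from lists of genes, of which only those in the tables could be measured. Their counts are to be read against the shares of all listed genes, of which 47.2% rose and 24.2% fell in Flica-positive, 38.8% and 29.9% in CD8 Flica-negative and 33.0% and 27.9% in CD4 Flica-negative cells against control, and 21.7% rose and 2.80% fell from CD8 Flica-negative to Flica-positive cells. Of 27 G protein subunit genes 7 were listed, and 6 of them rose in Flica-positive cells over control, 3 in CD8 Flica-negative and 3 in CD4 Flica-negative cells, and Gngt2 fell in the Flica-negative cells of each lineage. Gna15, an alpha subunit of hematopoietic cells, went from 99.9 to 3301 in CD4 (5.04 ± 0.21, edgeR adjusted p = 1.87e-08) and from 157 to 2909 in CD8 cells (4.21 ± 0.20, edgeR adjusted p = 1.32e-07). Gng2 also rose in CD8 cells (2.24 ± 0.17, edgeR adjusted p = 2.67e-06), while Gnaq (1.38 ± 0.37, edgeR adjusted p = 0.0188) and Gng12 (3.04 ± 0.43, edgeR adjusted p = 0.000335) were higher in the Flica-positive than the Flica-negative cells. Of 20 regulators of G protein signalling, which speed the switching off of G proteins, 7 were listed. Against control, 5 of these rose and 2 fell in Flica-positive cells, and 3 rose and 2 fell in the Flica-negative cells of each lineage. Rgs1 (from 243 to 4460.2, 4.19 ± 0.34, edgeR adjusted p = 3.71e-06) and Rgs16 (5.53 ± 0.51, edgeR adjusted p = 8.98e-06) rose in CD8 Flica-negative cells, and Rgs10 (-3.93 ± 0.25, edgeR adjusted p = 7.24e-07) and Rgs11 (-4.17 ± 0.33, edgeR adjusted p = 3.16e-06) fell, each in the same direction in CD4 cells.

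Of 17 genes of eicosanoid synthesis and breakdown, among them those that make the ligands of Ltb4r1 and Ptger3, 10 were listed, and 8 of these rose in Flica-positive over Flica-negative cells and none fell, where 21.7% and 2.80% of all listed genes did. The neutrophil and the macrophage and monocyte marker sums were 20.2-fold and 16.6-fold higher in the same comparison, and their part in this result was not tested. Alox5ap, the 5-lipoxygenase activating protein, averaged 4693 against 253 (4.21 ± 0.33, edgeR adjusted p = 6.26e-06), Alox5 1323 against 76.4 (4.11 ± 0.33, edgeR adjusted p = 7.26e-06), Ptgs1 529 against 77.9 (2.76 ± 0.35, edgeR adjusted p = 0.000137) and Ptgs2 191 against 7.10 (4.71 ± 0.64, edgeR adjusted p = 0.000253). Over CD8 control, 4 of the 10 rose in Flica-negative cells. All 3 listed genes of nucleotide and adenosine metabolism (of 11) rose in Flica-positive cells over control. Entpd1 (CD39), which cleaves extracellular ATP and ADP, reached 1073 in CD8 Flica-negative cells from 47.1 (4.51 ± 0.37, edgeR adjusted p = 3.67e-06) and did not differ by the test in Flica-positive cells (0.10 ± 0.24, edgeR adjusted p = 0.792), whereas Ada (1.77 ± 0.31, edgeR adjusted p = 0.00138) and Entpd3 (3.97 ± 0.67, edgeR adjusted p = 0.00115) were higher there.

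Of 26 cyclic AMP enzymes 6 were listed, of which 4 rose and 1 fell in Flica-positive, 2 rose and 2 fell in CD8 Flica-negative and 1 rose and 1 fell in CD4 Flica-negative cells against control. The cyclase Adcy6 fell in CD8 Flica-negative cells (-3.03 ± 0.31, edgeR adjusted p = 1.54e-05), the phosphodiesterase Pde4a rose (4.53 ± 0.38, edgeR adjusted p = 3.99e-06), and the kinase subunit Prkar2b (2.47 ± 0.35, edgeR adjusted p = 0.000357) and the phosphodiesterase Pde7b (4.75 ± 1.32, edgeR adjusted p = 0.0234) were higher in the Flica-positive than the Flica-negative cells. Of 10 receptor kinases and arrestins 2 were listed, Arrb1, which fell in CD8 Flica-negative cells (-2.35 ± 0.25, edgeR adjusted p = 1.92e-05), and Grk3, and both were higher in the Flica-positive than the Flica-negative cells (1.55 ± 0.27, edgeR adjusted p = 0.00156 and 3.99 ± 0.58, edgeR adjusted p = 0.00042). Of 15 genes of sphingosine and lysophosphatidic acid metabolism 6 were listed, of which 3, 3 and 2 rose in the same comparisons and 1 (Spns2, in CD8 Flica-negative cells) fell. Plpp2 rose in CD8 and CD4 Flica-negative cells (3.01 ± 0.46, edgeR adjusted p = 0.000257 and 1.88 ± 0.46, edgeR adjusted p = 0.00464). Sphk1 rose over control in Flica-positive (5.69 ± 1.44, edgeR adjusted p = 0.00834) and Pla1a, with no count in CD8 control libraries, in CD8 Flica-negative cells (edgeR adjusted p = 0.000564). Cyp27a1, the single listed gene of 4 of oxysterol metabolism, fell in CD8 Flica-negative cells (-3.62 ± 1.24, edgeR adjusted p = 0.0253) and was higher in the Flica-positive than the Flica-negative cells (5.60 ± 1.15, edgeR adjusted p = 0.00416). Of the 4 regulators of S1pr1, Foxo1 fell in CD8 Flica-negative cells from 8077 to 3026 (-1.42 ± 0.15, edgeR adjusted p = 2.04e-05) and Cd69, which holds S1pr1 off the surface, rose from 2741 to 4972 (0.86 ± 0.24, edgeR adjusted p = 0.00989), and both were lower in the Flica-positive than the Flica-negative cells (-0.66 ± 0.22, edgeR adjusted p = 0.0474 and -0.76 ± 0.23, edgeR adjusted p = 0.0331).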

How the data were processed

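RNA was prepared with NucleoSpin columns and sequenced after oligo-dT selection as 150-base read pairs. The submitters' processing notes name STAR 2.7.1a, DESeq2 and the build GRCm38. The counting tool, annotation and use of strand are not given in the sources used here. The authors deposited 4 tables, each with raw counts per gene for all 15 libraries and, as signal, the mean of counts divided by size factors. The deposited tables also hold the authors' own comparisons as log2 fold changes and p-values, which were read only to find how genes had been selected and are not reported, and 4 tables of term enrichment were not used. No sample column was left unmapped (0).

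The size factors were recovered from the counts and the deposited means. Counts of the 4567 genes in any table were fitted with edgeR 4.0.16 (R 4.3.3) by the quasi-likelihood test, with these factors as offsets, genes with at least 10 counts in the libraries compared, and Benjamini-Hochberg adjustment over all listed genes tested. Alternatives were TMM scaling, DESeq2 1.42.0, other filters on low counts, a fit of all 5 groups, the replicate number as a block and leaving out each library. The depth of whole libraries was not had from tables of selected genes, and counting intervals cover counting error only. Tested on simulated data, the fit called 123 of 196 genes changed 4-fold between Flica-positive and Flica-negative cells (88 of 92 with a mean of at least 50) and 11 unchanged of 4016 in all. For CD4 Flica-negative against control it called 109 of 199 changed genes (3 unchanged of 3834), and for the difference between the lineages 52 of 199 (3 unchanged of 4500). For both group comparisons, simulated means and spread came from the reference group alone, CD8 Flica-negative or CD4 control cells. Real Flica-positive replicates differed more: the chi-square per gene between pairs of replicates was 89.2 to 265, against 18.9 to 38.4 in CD8 Flica-negative cells. The simulation does not cover that larger spread.

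Members and lists were chosen with earlier results of these data known. Named receptor genes were, per comparison with a table, up to 10 called genes with the largest rise and up to 10 with the largest fall at a mean of at least 20 normalized counts in the higher group, plus a list of receptor and pathway genes given whatever they showed, and further genes were named after their values were seen. Some genes that these rules cover are counted but not reported here. Gene positions and exon lengths came from GENCODE M21, and upstream windows from RefSeq.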

Additional observations from a re-analysis of the deposited data

Results flagged for a closer look

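The change from control to Flica-negative cells differed between CD4 and CD8 cells, by the edgeR interaction test over 12 libraries, for 7 receptor genes named here with more than 3 counts in each of the 4 groups. As the CD4 minus the CD8 log2 change, the difference was -6.80 for Adgrg1 and -3.82 for P2ry14, both with the larger rise in CD8 cells. It was 6.77 for Gpr15, 4.10 for Gpr83, 1.85 for Adgrg3, 1.59 for F2r and 1.21 for Gpr55. Gpr83 fell in CD8 cells, and F2r and Gpr55 rose in both lineages from a lower level in CD4 control cells.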

How the results depend on the processing

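Of 139 calls of receptor genes over the 7 comparisons, 90 kept their direction and their side of the threshold under each alternative. TMM scaling ended 23, DESeq2 3, the fit of all groups 15, the stricter filter 1 and no filter 0, and 1 reversed: F2r in Flica-positive cells against CD8 control, at -0.81 under TMM. TMM moved the median fold change of all listed genes by -0.57 in Flica-positive against Flica-negative cells, -1.61 in Flica-positive, -0.38 in CD8 Flica-negative and -0.23 in CD4 Flica-negative cells against control. Under TMM, 21 receptor genes rose and 11 fell in Flica-positive cells against control (27.2% and 35.5% of all listed genes). Against Flica-negative cells, where 1 fell, 6 fell under TMM, 3 with DESeq2, 4 in the fit of all groups and 0 to 2 without 1 library. CD4 against CD8 Flica-negative cells gave 7 higher calls with DESeq2 and 5 lower calls in the fit of all groups, and 3 to 5 higher and 5 to 7 lower calls without 1 library. Without 1 library, 9 to 14 genes rose in Flica-positive over Flica-negative cells, 28 to 32 rose and 5 to 7 fell against CD8 control, and 20 to 24 rose and 8 to 9 fell in CD8 Flica-negative cells. The causes were not tested.

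With the replicate number as a block, 22 calls were lost. The replicate block gave 15 higher and 4 lower calls for Flica-positive against Flica-negative cells, 6 lower calls in CD8 Flica-negative cells against control and 7 higher calls in CD4 against CD8 Flica-negative cells. The numbers were not taken as pairs: over 3821 genes, same-numbered libraries deviated from their group means with a correlation of 0.128, 0.0392 and 0.0771 between Flica-positive and Flica-negative cells and of at most 0.00387 between day 7 and CD8 or CD4 control cells. Each library did correlate best with its own number between the 2 CD8 day 7 groups, between the 2 Flica-negative groups and between the 2 control groups. The study sorted stained splenocytes into these groups. Same-numbered libraries within day 7 or within control may thus share a sort, which the labels do not state.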
